A study of Homo sapiens with 16 samples.

Results

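The genes described here are 9 members of the YAP, TEAD and Hippo group, namely YAP1, WWTR1, TEAD1, TEAD4, LATS2, AMOTL2, AJUBA, ANKRD1 and AXL. They were picked by gene symbol, with earlier results of these data known and no threshold on measured values, from the 42351 genes of the table, and 9 of 9 had enough counts to be tested. Total RNA was sequenced from 2 lung cancer lines treated with hepatocyte growth factor (HGF), the ligand of the receptor tyrosine kinase MET, for 0, 3, 6 or 12 h. A549, a lung adenocarcinoma line, was labelled as the cells expressing wt MET, and NCI-H596, a lung adenosquamous carcinoma line, expresses MET∆14, a receptor that lacks the juxtamembrane part encoded by exon 14. Each line and time had 2 biological replicates, which gives 16 libraries. All cells, those at 0 h included, had been deprived of serum before HGF, for 12 h per the labels and for 24 h per the study's methods. The labels name A549 as the wt MET line, whereas the study's text names another line for its wt MET cells and does not say which was sequenced. Each MET status is 1 cell line, so a difference between the lines and a difference between the receptors cannot be told apart. No untreated cells were collected at the later times, so HGF and time in culture cannot be told apart either.

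The Hippo pathway is a kinase cascade in which MST kinases activate the LATS kinases, which phosphorylate the coactivators YAP (YAP1) and TAZ (WWTR1) and keep them out of the nucleus. Unphosphorylated YAP and TAZ enter the nucleus and bind the TEAD transcription factors, which hold the DNA contact and recognise the sequence GGAATG. Their targets include secreted and cytoskeletal genes such as ANKRD1, CCN1 and CCN2, and also LATS2 and AMOTL2, whose products restrain YAP in turn. In lung epithelium the pathway is known for its part in cell density sensing and regeneration. The activity of YAP and TAZ is set largely by phosphorylation and location, which RNA levels do not show.

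The promoters of the members are shown because TEAD factors read a short, known sequence. RefSeq promoter windows (GRCh38.p14, 250 bases before the start to 50 after it) were found for 7 of the 9 members, and TEAD1 and TEAD4 were not among them. A single window was kept per gene. That of WWTR1 (upstream part chr3:149703274-149703523) lay inside the annotated gene, at an internal start, so its letters are not those before the gene's outermost start. GGAATG, read on both strands, was present in 3 of the 7, which were ANKRD1, YAP1 and LATS2, against 14.0% of 27305 promoters of the same length. CCN2, the classic YAP target, is printed beside the members. In the lines below, read 5′ to 3′ on the strand of the gene, the capitals mark GGAATG.
ANKRD1, chr10:90921173-90921337, minus strand: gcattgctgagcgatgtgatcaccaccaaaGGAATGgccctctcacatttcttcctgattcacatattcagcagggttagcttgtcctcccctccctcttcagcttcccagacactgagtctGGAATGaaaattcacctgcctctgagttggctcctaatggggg
YAP1, chr11:102110248-102110327, plus strand: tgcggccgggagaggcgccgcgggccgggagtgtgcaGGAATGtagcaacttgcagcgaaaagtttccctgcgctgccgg
CCN2, chr6:131951425-131951578, minus strand: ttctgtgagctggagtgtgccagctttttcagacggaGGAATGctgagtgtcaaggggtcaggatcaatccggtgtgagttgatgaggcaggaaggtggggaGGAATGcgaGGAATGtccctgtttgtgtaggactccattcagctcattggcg

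In ANKRD1 the matches began at -220 and -128 from the start, in YAP1 at -162, and in LATS2 at 10 bases past the start. CCN2 held 3 matches, at -169, -104 and -95. Promoters were found for 12 of the other YAP and TAZ targets described below, and the windows of some, CCDC80 among these, also lay inside the annotated gene. GGAATG was present in 5 of the 12, and CCN2 held the most matches of them. The motif of AP-1 factors, TGANTCA, which does not overlap GGAATG in these windows, was found in 1 of the 7 members, ANKRD1, at -195, and in 7.8% of all promoters. These matches are a description of the letters near the start and say nothing of whether a factor was bound.

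Library totals lay between 10158590 and 23909304 counts. Levels are in CPM, counts scaled to a common library total with edgeR's TMM factors, and fold changes are on the log2 scale with their standard error (SE), with p-values adjusted by Benjamini and Hochberg over all 15067 genes tested. A gene is called when the adjusted p of edgeR's quasi-likelihood test is below 0.05. Every replicate pair differed by more than counting noise, and the 12 h NCI-H596 libraries differed most, with a chi-square per degree of freedom of 32.9 against 2.69 to 9.42 in the other groups. All groups share 1 estimate of the spread, to which this pair adds, and where leaving out either library of the pair changed a printed call of a member, this is given beside it. Defining markers matched the epithelial labels in part. KRT8 was at 493 CPM or above in every A549 library, whereas other epithelial markers were low there, with EPCAM at 0.868 to 2.97 CPM, CDH1 at 2.54 to 12.6 CPM and KRT19 at 26.7 to 53.1 CPM. In NCI-H596 the lowest values of these 3 genes were 24.4, 80.7 and 931 CPM. In A549 CDKN2A, a gene deleted in A549, had 0 counts in all 8 libraries. KRT5 and TP63, markers of squamous cells, were at or above 1743 and 96.5 CPM in NCI-H596. The lung factor NKX2-1 was at most 1.27 CPM in A549 and 0.0547 CPM in NCI-H596, and SFTPB was at 0 in both. CPM is a share of the RNA, so a change in the RNA of each cell and a change in the cells that carry it cannot be told apart.

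YAP1 encodes the coactivator YAP and lies on chromosome 11 (hg38, 102110447 to 102233424, plus strand). Its CPM in A549 were 180 and 182 at 0 h, 174.5 and 179.8 at 3 h, 197 and 191 at 6 h, and 227 and 223 at 12 h. In NCI-H596 they were 217 and 214 at 0 h, 238 and 225 at 3 h, 222 and 222 at 6 h, and 242 and 226 at 12 h. Both 12 h libraries of A549 thus stood above all its earlier ones. The NCI-H596 libraries stayed within a narrow band, in which all those after HGF stood above both at 0 h. The rise in A549 at 12 h was 0.31 (SE 0.0711, adjusted p = 0.0035), and the values at 3 and 6 h, -0.03 and 0.10, did not pass the test. In NCI-H596 the largest of the 3 values was 0.12 at 12 h (adjusted p = 0.203), with a 95% interval from -0.0315 to 0.271. The difference between the lines at 12 h, -0.19, did not pass the test (adjusted p = 0.19), and neither did the F test over the 3 times (adjusted p = 0.0871). Without NCI-H596 12 h replicate 1 both passed, with -0.24 at 12 h (adjusted p = 0.0488) and an F test at adjusted p = 0.0128, and without replicate 2 neither did (adjusted p = 0.22 and 0.0671). Whether the rise is particular to A549 thus depended on 1 library. Of the exon bases of YAP1, 10.1% overlap genes on the other strand, and the use of strand in the counting is not given in the sources used here.

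WWTR1 encodes TAZ, the paralogue of YAP, and lies on chromosome 3 (hg38, 149517235 to 149736714, minus strand). It moved in opposite directions in the lines. In A549 its CPM were 157 and 144 at 0 h, 105 and 105 at 3 h, 93.6 and 89.3 at 6 h, and 138 and 144 at 12 h. In NCI-H596 they were 63.1 and 62.7 at 0 h, 149.8 and 147 at 3 h, 147 and 156 at 6 h, and 134 and 134 at 12 h. All A549 libraries at 3 and 6 h were below those at 0 h, with the 12 h libraries near the lower of them, and every NCI-H596 library after HGF was above both at 0 h. The fall in A549 was -0.52 at 3 h (SE 0.0735, adjusted p = 0.000183) and -0.72 at 6 h (SE 0.0736, adjusted p = 4.46e-06). From 6 to 12 h it rose again by 0.63 (SE 0.0733, adjusted p = 6.99e-05), which left -0.09 against 0 h (adjusted p = 0.349). The rise in NCI-H596 was 1.24 at 3 h, 1.27 at 6 h and 1.09 at 12 h, with adjusted p = 2.15e-08, 8.22e-09 and 1.17e-07, and without either 12 h library the last value was 1.09 or 1.08. The difference in response between the lines was 1.76, 1.99 and 1.19 at the 3 times, with adjusted p = 5.5e-08, 1.68e-08 and 2.76e-06. In a model with line and time as additive terms, the formula the study used, the mean time effect of WWTR1 was 0.27 and its F test gave adjusted p = 0.717. Of its exon bases, 9.05% overlap WWTR1-AS1 on the other strand.

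**Figure D1:**
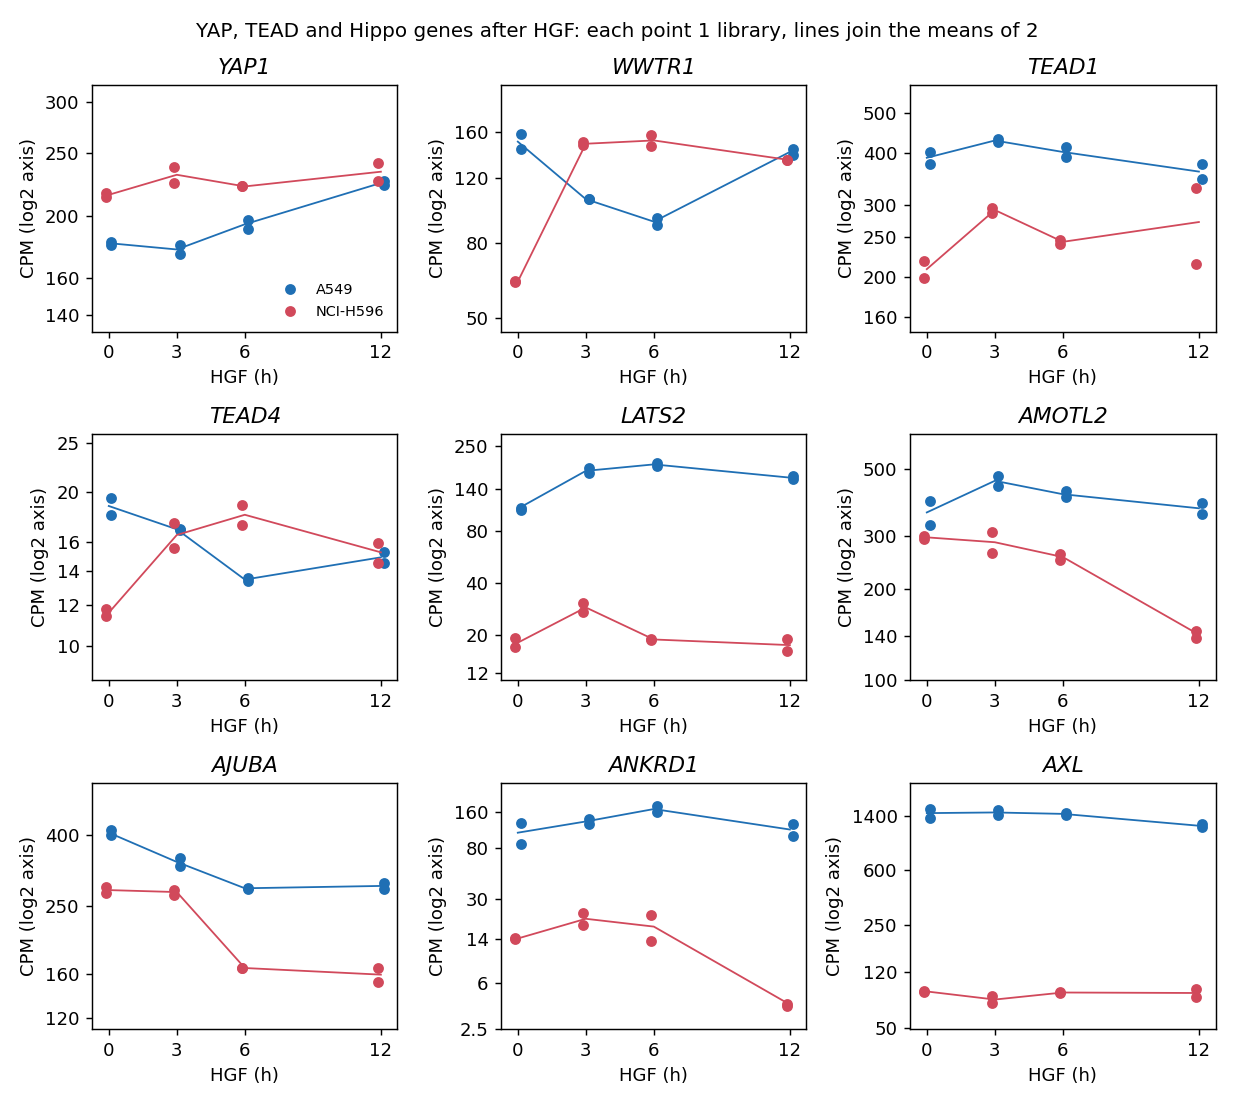
Each panel shows 1 gene, with hours of HGF on the x axis and CPM on a log2 y axis. Each point is 1 library, lines join the means of 2, and A549 is blue and NCI-H596 red. WWTR1 fell to about 90 CPM in A549 at 6 h while it rose from 63 CPM to about 150 CPM in NCI-H596, and the NCI-H596 libraries of AMOTL2 and ANKRD1 were lowest at 12 h.

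TEAD1 encodes a DNA-binding partner of YAP and TAZ and lies on chromosome 11 (hg38, 12674421 to 12944737, plus strand). Its A549 libraries were at 403 and 378 CPM at 0 h, 426 and 434 at 3 h, 414 and 392 at 6 h, and 377 and 346 at 12 h. The NCI-H596 libraries were at 199.6 and 219 CPM at 0 h, 295 and 287 at 3 h, 241 and 247 at 6 h, and 329.7 and 215 at 12 h. The later A549 libraries lay around the 0 h ones, the 3 and 6 h NCI-H596 libraries lay above both at 0 h, and the 12 h NCI-H596 pair spanned them. No time passed the test in A549, with values of 0.14, 0.05 and -0.11. In NCI-H596 the rise was 0.48 at 3 h (SE 0.139, adjusted p = 0.0162) and 0.38 at 12 h (SE 0.139, adjusted p = 0.0407), against 0.22 at 6 h (adjusted p = 0.217). The 3 h call was lost without NCI-H596 0 h replicate 1 or either 3 h replicate, with an adjusted p up to 0.118. The 12 h call was lost in 13 of 16 fits with 1 library left out, and without 12 h replicate 1 the value was 0.04 (adjusted p = 0.765). The F test over the 3 times did not call a difference between the lines in the response of TEAD1 (adjusted p = 0.198), but did so without NCI-H596 12 h replicate 1 (adjusted p = 0.0312) or replicate 2 (adjusted p = 1.88e-05). At 12 h the difference was 0.49 (adjusted p = 0.0818), or 0.15 without replicate 1 and 0.76 without replicate 2 (adjusted p = 0.311 and 8.78e-06). The 6 h rise in NCI-H596 was also called without replicate 1 or 2 of the 12 h pair (0.22 and 0.21, adjusted p = 0.00716 and 0.0101), as was the F test in A549 (adjusted p = 0.0184 and 0.00715, against 0.478 with all libraries).

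TEAD4, a second TEAD factor, lies on chromosome 12 (hg38, 2959330 to 3040676, plus strand). In A549 it was at 18.1 and 19.5 CPM at 0 h, 17.0 and 16.9 at 3 h, 13.4 and 13.6 at 6 h, and 15.3 and 14.5 at 12 h. In NCI-H596 it was at 11.8 and 11.4 CPM at 0 h, 17.4 and 15.6 at 3 h, 17.3 and 18.9 at 6 h, and 14.6 and 15.9 at 12 h. All libraries after HGF were below those at 0 h in A549 and above those at 0 h in NCI-H596, the direction that WWTR1 took at 3 and 6 h. TEAD4 fell in A549 at 6 h by 0.48 on the log2 scale (SE 0.11, adjusted p = 0.00354) and at 12 h by 0.33 (SE 0.108, adjusted p = 0.0264), and the value at 3 h was -0.15 (adjusted p = 0.385). It rose in NCI-H596 by 0.50, 0.64 and 0.39 at 3, 6 and 12 h, with adjusted p = 0.00282, 0.000216 and 0.0129. With no filter on low counts the 12 h value there was 0.39 at adjusted p = 0.05, which was not called. The lines differed by 0.65, 1.12 and 0.72, with adjusted p = 0.00864, 7.09e-05 and 0.00355. The 12 h call in A549 was lost without 0 h replicate 2 or either 12 h replicate (adjusted p up to 0.131), and also by DESeq2 (adjusted p = 0.0909) and with no filter on low counts (adjusted p = 0.0954). The 12 h call in NCI-H596 was lost without either 0 h replicate or 12 h replicate 2 (adjusted p up to 0.0884), and the difference at 3 h without NCI-H596 0 h replicate 2 or 3 h replicate 1 (adjusted p up to 0.0563).

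Per kilobase of the longest transcript, a scale on which genes can be compared, TEAD1 had the highest level of the 4 TEAD genes in both lines. In A549 before HGF the levels were 41.5 ± 1.86 CPM per kb for TEAD1 and 10.99 ± 0.589 for TEAD4 (SD, n = 2). TEAD3 and TEAD2, the other two family members, were at 3.21 ± 0.0492 and 2.13 ± 0.429 CPM per kb. NCI-H596 had another order before HGF, with TEAD1 at 22.2 ± 1.48, TEAD2 at 14.1 ± 0.0509, TEAD3 at 13.2 ± 0.0431 and TEAD4 at 6.79 ± 0.155 CPM per kb. At 6 h TEAD4 had moved to second place there, at 10.6 ± 0.645 CPM per kb, above TEAD3 at 7.59 ± 0.222 and TEAD2 at 7.32 ± 0.447, which overlapped within their SD. TEAD4 was the lowest of the 4 there at 3 h, at 9.65 ± 0.77 CPM per kb against 11.7 ± 0.954 for TEAD3 and 11.04 ± 0.269 for TEAD2, and at 12 h, at 8.92 ± 0.572 against 11.8 ± 1.67 and 10.1 ± 1.14. On the same scale WWTR1 was below YAP1 in both lines at all times, with 29.9 against 33.6 CPM per kb in A549 and 12.5 against 39.9 in NCI-H596 at 0 h. The order of the levels was not tested.

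**Figure D2:**
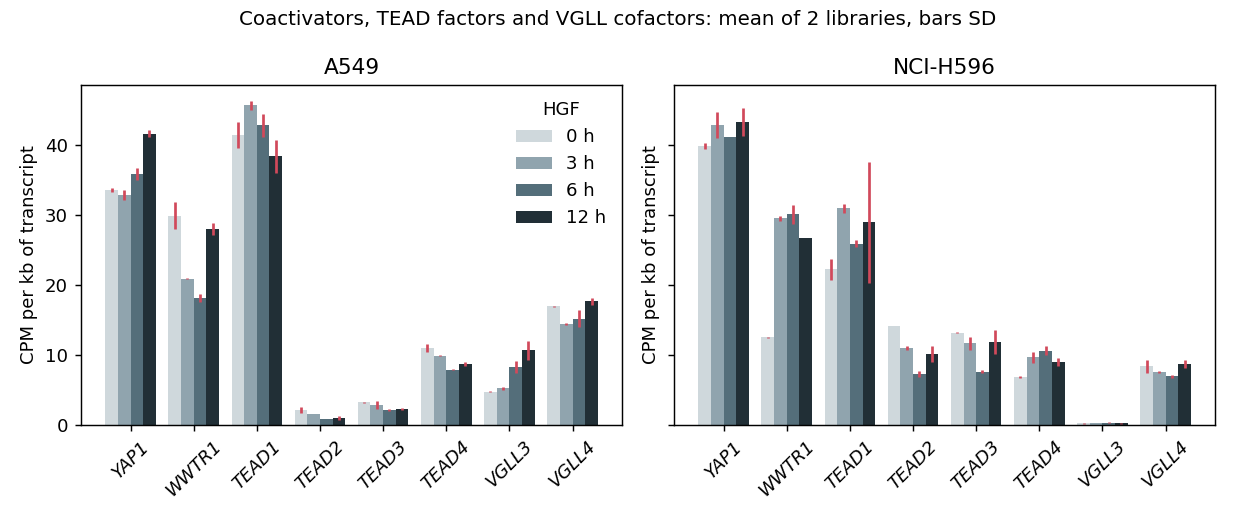
Bars show the mean level of 2 libraries in CPM per kilobase of the longest transcript (y axis, starting at 0) for the coactivators, TEAD factors and VGLL cofactors (x axis), with SD bars, 1 panel per line and darker bars for later times. WWTR1 in NCI-H596 went from 12.5 at 0 h to 30.1 at 6 h, and in A549 from 29.9 to 18.2.

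LATS2 encodes a kinase that phosphorylates YAP and TAZ and is itself a YAP target (chromosome 13, hg38, 20973036 to 21061586, minus strand). In A549 its libraries were at 106 and 109.6 CPM at 0 h, 185 and 173 at 3 h, 199 and 191 at 6 h, and 166 and 161 at 12 h. In NCI-H596 they were at 16.9 and 19.1 CPM at 0 h, 30.5 and 27.2 at 3 h, 18.8 and 18.8 at 6 h, and 18.8 and 16.04 at 12 h. Every A549 library after HGF stood above both at 0 h, whereas in NCI-H596 only the 3 h libraries did. The rise in A549 was 0.73, 0.86 and 0.60 at 3, 6 and 12 h, with adjusted p = 3.23e-05, 3.6e-06 and 0.000103. In NCI-H596 it was 0.67 at 3 h (SE 0.0992, adjusted p = 0.000108), and the level fell from 3 to 6 h by 0.61 (SE 0.099, adjusted p = 0.00143), to 0.06 and -0.04 against 0 h. The lines did not pass the test of a difference at 3 h (-0.06, adjusted p = 0.831) and differed at 6 h by -0.80 (adjusted p = 0.000329) and at 12 h by -0.64 (adjusted p = 0.00297).

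AMOTL2 encodes an angiomotin family scaffold that binds YAP at cell junctions, and is also a YAP target (chromosome 3, hg38, 134355347 to 134375479, minus strand). Its A549 libraries were at 326 and 391 CPM at 0 h, 472 and 440 at 3 h, 421 and 403 at 6 h, and 386 and 354 at 12 h. The NCI-H596 libraries were at 293 and 299 CPM at 0 h, 308 and 263 at 3 h, 249.9 and 260 at 6 h, and 144 and 137 at 12 h. The 12 h NCI-H596 pair was the lowest of all 16 libraries. There the fall against 0 h was -1.07 (SE 0.102, adjusted p = 1.96e-06), most of it after 6 h (-0.85 from 6 to 12 h, adjusted p = 8.22e-05), and without 12 h replicate 1 or 2 it was -1.11 or -1.05. The NCI-H596 values at 3 and 6 h, -0.05 and -0.22, did not pass the test (adjusted p = 0.725 and 0.094). Both 6 h libraries lay below those at 0 h, and the 6 h value passed without either 12 h library, at -0.21 or -0.22. In A549 AMOTL2 rose at 3 h by 0.35 (SE 0.1, adjusted p = 0.026), a call lost without 0 h replicate 1 or either 3 h replicate (adjusted p up to 0.231), and the values at 6 and 12 h were 0.20 and 0.05. The 6 h value in A549 was called without A549 0 h replicate 2 (0.36, adjusted p = 0.0228) or NCI-H596 12 h replicate 2 (0.22, adjusted p = 0.0382). The difference between the lines at 3 h, -0.40, did not pass the test (adjusted p = 0.0645). It passed without either NCI-H596 12 h library, at -0.40 or -0.43. At 12 h the lines differed by -1.12 (adjusted p = 6.54e-05) and at 6 h by -0.42 (adjusted p = 0.0367). The call at 6 h was lost without any 1 of 7 libraries, namely A549 0 h replicate 1 and each replicate of A549 6 h and of NCI-H596 0 and 6 h, with an adjusted p up to 0.148.

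AJUBA encodes a LIM domain protein that binds LATS kinases and restrains them (chromosome 14, hg38, 22971177 to 22982551, minus strand). Its A549 libraries were at 398 and 412 CPM at 0 h, 342 and 326 at 3 h, 283 and 279.8 at 6 h, and 290.5 and 281 at 12 h. In NCI-H596 the values were 273 and 283 CPM at 0 h, 269.8 and 279 at 3 h, 167 and 166 at 6 h, and 167 and 152 at 12 h. At 6 and 12 h every library of either line was below those at 0 h of its line, and at 3 h this held in A549 and not in NCI-H596. The fall in A549 was -0.28, -0.53 and -0.51 at the 3 times, with adjusted p = 0.0177, 8.25e-05 and 0.000138. In NCI-H596 it was -0.74 at 6 h (adjusted p = 1.82e-06) and -0.80 at 12 h (adjusted p = 1.77e-06), with -0.72 of it between 3 and 6 h (adjusted p = 5.01e-05). The F test over the 3 times found a difference between the lines (adjusted p = 0.00301), and no single time passed it, with 0.26, -0.21 and -0.30 at adjusted p = 0.112, 0.149 and 0.0555. All 3 times passed without NCI-H596 12 h replicate 1 (adjusted p = 0.0191, 0.0453 and 0.00452), and those at 3 and 6 h without replicate 2 (adjusted p = 0.036 and 0.0241). The 3 h call in A549 was lost without 0 h replicate 2 or either 3 h replicate (adjusted p up to 0.177), and with no filter on low counts (adjusted p = 0.101).

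ANKRD1 encodes an ankyrin repeat protein of muscle and stressed cells, a widely used readout of YAP and TAZ (chromosome 10, hg38, 90912096 to 90921087, minus strand). Its A549 libraries were at 86.7 and 129 CPM at 0 h, 127 and 140.2 at 3 h, 160.2 and 179 at 6 h, and 127 and 102 at 12 h. The NCI-H596 libraries were at 14.1 and 14.1 CPM at 0 h, 23.0 and 18.3 at 3 h, 13.5 and 22.0 at 6 h, and 4.05 and 3.89 at 12 h, where they held 74 and 42 counts. In NCI-H596 the 12 h libraries were below all others and the 3 h libraries above both at 0 h, while the A549 replicates at 0 h were far apart and overlapped those at 3 and 12 h. The fall in NCI-H596 at 12 h was -1.82 (SE 0.295, adjusted p = 0.000311), and without 12 h replicate 1 or 2 it was -1.86 (adjusted p = 0.0483) or -1.81 (adjusted p = 0.0238). From 6 to 12 h the change was -2.19 (SE 0.287, adjusted p = 0.000262). In A549 ANKRD1 rose at 6 h by 0.66 (SE 0.192, adjusted p = 0.0177), a call lost without 0 h replicate 1 (0.40, adjusted p = 0.184) or 6 h replicate 2 (0.59, adjusted p = 0.102). The 3 h value in NCI-H596 was 0.54 (adjusted p = 0.1), and DESeq2 gave adjusted p = 0.0424. Over the 6 alternative fits that kept both replicates, its adjusted p ran from 0.000359 to 0.114. The uncalled values of 0.31 at 3 h in A549 and 0.36 at 6 h in NCI-H596 also depended on the fit. Their lowest adjusted p over these alternatives was 0.0212 and 0.0146. At 12 h the lines differed by -1.91 (SE 0.355, adjusted p = 0.00161), and this difference and the change from 6 to 12 h were past the threshold in all fits with a library left out but the one without NCI-H596 12 h replicate 1 (adjusted p = 0.0606 and 0.0543).

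AXL encodes a receptor tyrosine kinase of the TAM family and is a YAP target in several cancer lines (chromosome 19, hg38, 41219223 to 41261766, plus strand). Its A549 libraries were at 1369 and 1569 CPM at 0 h, 1534 and 1435 at 3 h, 1431 and 1472 at 6 h, and 1179 and 1229 at 12 h. The NCI-H596 libraries were at 88 and 88.7 CPM at 0 h, 73.8 and 81.8 at 3 h, 87.2 and 86.6 at 6 h, and 91.8 and 80.7 at 12 h. The lines did not overlap at any time, and within A549 only the 12 h libraries were outside the 0 h range. In A549 AXL fell at 12 h by 0.29 on the log2 scale (SE 0.0943, adjusted p = 0.0282), a call lost without 0 h replicate 2 or either 12 h replicate (adjusted p up to 0.199). The values in NCI-H596 were -0.18, -0.02 and -0.03, with adjusted p of 0.18 or above, and the F test of a difference in response gave adjusted p = 0.0853. This difference was called without NCI-H596 12 h replicate 2 (adjusted p = 0.00345) or A549 0 h replicate 2 (adjusted p = 0.0399), and that at 12 h, 0.26 (adjusted p = 0.201), rose to 0.34 without NCI-H596 12 h replicate 2 (adjusted p = 0.0284).

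**Figure D3:**
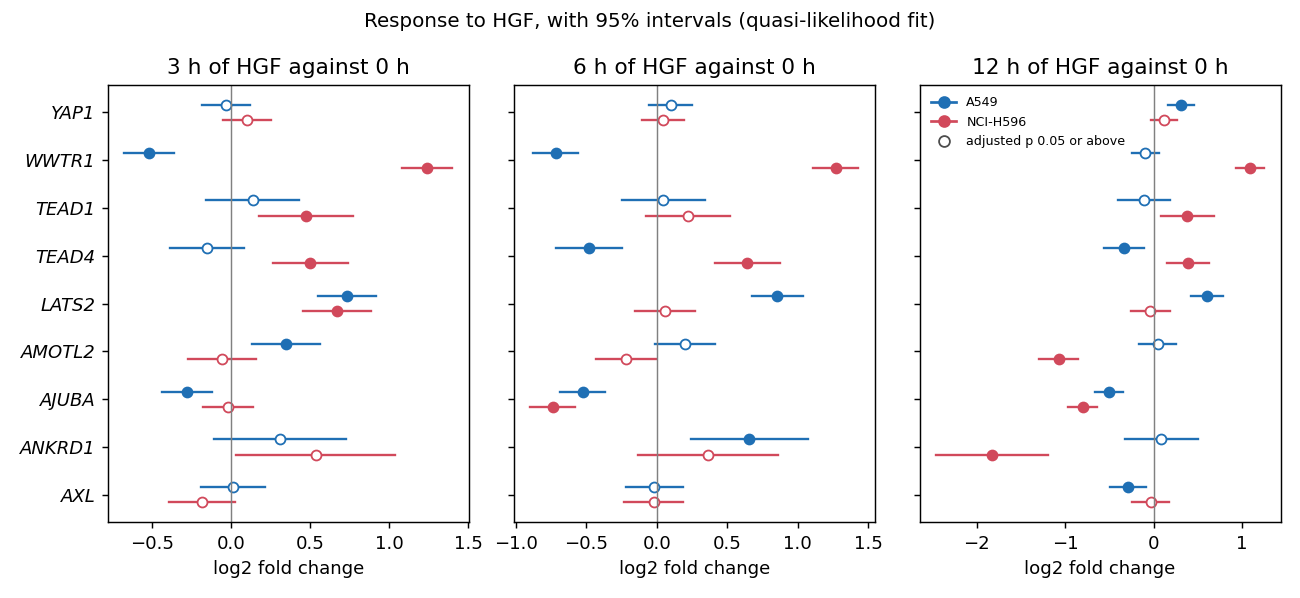
Log2 fold change against 0 h of the same line (x axis) for each member (y axis) at 3, 6 and 12 h of HGF, 1 panel per time, with 95% intervals of the quasi-likelihood fit; filled points passed the test. The A549 and NCI-H596 points of WWTR1 lie on opposite sides of 0 at 3 and 6 h, at -0.52 and 1.24 and at -0.72 and 1.27, and ANKRD1 in NCI-H596 lies at -1.82 at 12 h.

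Counted together, the members did not move one way. In A549, 4 of the 9 were called at 3 h (2 higher and 2 lower), beside 17.4% of all genes tested (10.3% higher and 7.16% lower). The count was 5 at 6 h (2 higher and 3 lower), beside 34.2% (16.4% and 17.8%), and 5 at 12 h (2 higher and 3 lower), beside 35.1% (16.9% and 18.2%). In NCI-H596, 4 were called at 3 h, all higher (TEAD1, TEAD4, WWTR1 and LATS2), beside 31.7% of all genes (15.5% higher and 16.1% lower), with a median over the 9 of 0.48 against -0.05 over all genes. At 6 h 3 were called (2 higher and 1 lower), beside 44.1% (21.6% and 22.5%), and at 12 h 6 (3 higher and 3 lower), beside 38.3% (18.3% and 20.1%). The tests share the 0 h libraries within a line. Their medians over the 9 members were 0.02, 0.05 and -0.09 in A549 and 0.48, 0.06 and -0.03 in NCI-H596. The F test over the 3 times called 8 members in A549 (40.3% of all genes), or 5 to 8 with a library left out, and 7 in NCI-H596 (54.1%). The NCI-H596 call of TEAD1 by this F test was lost with the replicate block (adjusted p = 0.0568) and with each line alone (adjusted p = 0.104). It also depended on single libraries. The difference between the lines called 2 members at 3 h (17.4% of all genes), 4 at 6 h (30.2%), 5 at 12 h (24%) and 6 by the F test (37.6%). The count at 3 h was 5 without either NCI-H596 12 h library and 1 without NCI-H596 0 h replicate 2, and the count at 6 h in NCI-H596 was likewise 5 without either of its 12 h libraries. Without 12 h replicate 1 or 2 of NCI-H596, the 12 h differences of WWTR1 (1.18 and 1.18), TEAD4 (0.79 and 0.65), LATS2 (-0.78 and -0.55) and AMOTL2 (-1.16 and -1.09) were still called.

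Of the steps between times, 6 against 3 h in A549 called 0 members by edgeR (3.1% of all genes), with 3 at an unadjusted p under 0.05, and 1 by DESeq2, with no filter on low counts, with each line fitted alone or without either NCI-H596 12 h library. The step from 12 against 6 h in A549 called WWTR1 alone (11.6%), and 5 members by DESeq2, with 4 or 5 without NCI-H596 12 h replicate 1 or 2 and 4 without A549 0 h replicate 2. In NCI-H596 the step from 3 to 6 h called LATS2 and AJUBA, both lower (9.77% of all genes called, 4.67% higher and 5.1% lower), and the step from 6 to 12 h called AMOTL2 and ANKRD1, both lower (18.6%, with 8.3% higher and 10.3% lower), which became 1 member without 12 h replicate 1 and 4 without replicate 2. The additive model of line and time called LATS2, AMOTL2 and AJUBA (30.6%). The call of AMOTL2 was lost without A549 3 h replicate 1, NCI-H596 3 h replicate 1 or either NCI-H596 12 h replicate, with an adjusted p up to 0.123.

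Before HGF, 9 of the 9 members differed between the lines, YAP1 higher and 8 lower in NCI-H596, beside 80.2% of all genes (40.6% higher and 39.6% lower). AXL differed most, at 1469 ± 141 CPM in A549 and 88.3 ± 0.469 CPM in NCI-H596 (SD, n = 2), a log2 difference of -4.06 (SE 0.108, adjusted p = 8.79e-14). ANKRD1 differed by -2.93 (SE 0.221, adjusted p = 2.04e-08) and LATS2 by -2.58 (SE 0.096, adjusted p = 2.12e-12). WWTR1 was at 150.5 ± 9.84 CPM in A549 and 62.9 ± 0.258 in NCI-H596, a difference of -1.26, and TEAD1, TEAD4 and AJUBA differed by -0.90, -0.70 and -0.55. YAP1 was higher in NCI-H596 by 0.25 (adjusted p = 0.00462). The call of AMOTL2, -0.27 (adjusted p = 0.0202), was lost without A549 0 h replicate 2 or either NCI-H596 0 h replicate (adjusted p up to 0.342).

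Of 34 other Hippo kinases and upstream regulators, the F test over the 3 times called 18 in A549 (12 higher and 6 lower on average), or 52.9% beside 40.3% of all genes, and 25 in NCI-H596 (21 higher and 4 lower), or 73.5% beside 54.1%. Their medians at 3, 6 and 12 h were 0.065, 0.154 and 0.144 in A549 and 0.225, 0.297 and 0.41 in NCI-H596. Those of all genes were -0.044, -0.053 and -0.002 in A549 and -0.053, -0.039 and -0.024 in NCI-H596. The 12 h median in NCI-H596 rests on the pair of libraries that differed most. LATS1, the paralogue of LATS2, rose in A549 by 0.79 at 3 h (SE 0.132, adjusted p = 0.000712) and in NCI-H596 by 0.54 at 12 h (adjusted p = 0.0089), with 0.20 and 0.27 there at 3 and 6 h. The NCI-H596 call was lost without 0 h replicate 1 or 12 h replicate 1 (adjusted p up to 0.264). FAT1, an atypical cadherin upstream of the pathway, rose in A549 at 12 h by 1.16 (adjusted p = 0.000335). Its mean there was 1835 CPM at 6 h and 1503 CPM at 12 h. TAOK1, a kinase that acts on MST kinases, rose in A549 at 12 h by 0.69 (adjusted p = 0.000682). TAOK1 was also called higher in NCI-H596 at 12 h, at 0.26 or 0.74 without 12 h replicate 1 or 2. The kinase MAP4K4, which can phosphorylate LATS, rose in NCI-H596 by 0.52, 0.92 and 1.26 at the 3 times, and CSNK1E, a casein kinase, by 1.14, 1.197 and 0.83. Both were still called at 12 h without either 12 h library, at 1.17 or more and 0.74 or more. WWC1 (KIBRA), an activator of LATS, went from 143 to 160.3 CPM at 0 h to 101 to 107 CPM at 12 h in A549 and from 50.9 to 54.7 CPM to 144 to 155 CPM at 6 h in NCI-H596. Its log2 fold changes of -0.54 at 12 h in A549 (adjusted p = 0.000294) and 1.50 at 6 h in NCI-H596 (adjusted p = 1.16e-08) thus went opposite ways, and the F test of the difference gave adjusted p = 6.63e-07. AMOTL1, the relative of AMOTL2, behaved likewise, with -0.83 at 6 h in A549 and 0.55 in NCI-H596 (F test of the difference, adjusted p = 3.57e-05). LIMD1, a relative of AJUBA, fell in A549 by 0.59 at 3 h (adjusted p = 0.0384), a call lost in 13 of 16 fits with a library left out (adjusted p up to 0.257), and its NCI-H596 value was 0.34 (adjusted p = 0.169). The smallest values among called genes in NCI-H596, 0.19 for STRN and 0.16 for MOB1A at 12 h and -0.26 for DLG5 at 3 h, did not pass the test at those times. LIMD1, STRN, DLG5 and CSNK1E overlap other genes over more than 10% of their exon bases and are uncertain to that extent.

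Among other TEAD factors and VGLL cofactors, 4 of 6 were tested, since VGLL1 had at most 3 counts and VGLL2 had 0. TEAD2 and TEAD3 fell in both lines at 6 h, by 1.37 and 0.62 on the log2 scale in A549 and by 0.95 and 0.80 in NCI-H596, so TEAD4 in NCI-H596 rose while these relatives fell. The fall of TEAD3 in A549 was not called without 6 h replicate 2 (adjusted p = 0.0619). The TEAD2 exons overlap CD37 on the other strand. Of the VGLL4 exon bases, 23.8% overlap genes on the other strand, ATG7 among them. VGLL3, a cofactor that binds TEAD in place of YAP, rose in A549 from 49.6 and 49.9 CPM at 0 h to 101 and 121 CPM at 12 h (1.16, adjusted p = 2.3e-06), and was at most 3.51 CPM in NCI-H596. VGLL4, which competes with YAP for TEAD, was at -0.23 in A549 at 3 h (adjusted p = 0.0968) and passed at a single time, in NCI-H596 at 6 h (-0.26, adjusted p = 0.0367), where DESeq2 did not call it (adjusted p = 0.0604) and the call was lost without 0 h replicate 1 or either 6 h replicate.

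Of 18 other YAP and TAZ target genes, the F test called 11 in A549 (7 higher and 4 lower), or 61.1% beside 40.3% of all genes, and 17 in NCI-H596 (10 higher and 7 lower), or 94.4% beside 54.1%. CCN2, whose promoter is printed above, had CPM from 36.6 to 43.9 at 0 h in NCI-H596, 106 to 123 at 3 h, 74.9 to 88.3 at 6 h and 14.6 to 20.5 at 12 h. It rose by 1.50 at 3 h (SE 0.161, adjusted p = 6.61e-06) and 1.02 at 6 h (adjusted p = 0.000136) and was at -1.23 at 12 h (SE 0.178, adjusted p = 0.000103). In A549 the values were 0.37, 0.19 and 0.02, and none passed. CCN1 in NCI-H596 was at -0.29 and -0.28 at 3 and 6 h, without passing the test, and fell at 12 h by 1.47 on the log2 scale (SE 0.139, adjusted p = 1.78e-06). CCN1, CCN2, AMOTL2 and ANKRD1 were thus all lower than at 0 h in NCI-H596 at 12 h, as were IGFBP3 (-0.98), which binds insulin-like growth factors, and CCDC80 (-1.15), a matrix protein. Of the 18, 8 were called higher and 7 lower at that time, beside 18.3% and 20.1% of all genes. Without 12 h replicate 1 or 2, CCN1 was at -1.35 or -1.60 and CCN2 at -0.98 or -1.48, and the 12 h calls of CCN1, CCN2, IGFBP3, CCDC80, F3 and NT5E were kept. F3 (tissue factor) rose there by 2.44, 2.63 and 1.62 at the 3 times, and NT5E, an ectonucleotidase, by 0.46, 1.22 and 1.38. ASAP1, a regulator of ARF GTPases, rose at 12 h in A549 by 0.65, NT5E by 0.46 and the transcription factor FOXF2 by 0.40. The FOXF2 call was lost without 0 h replicate 2 or either 12 h replicate (adjusted p up to 0.0788). CRIM1 fell there by 0.71 on the log2 scale, NUAK2, a kinase, by 0.58, and CCDC80 fell by 0.67 at 3 h, a call lost without 0 h replicate 1 (adjusted p = 0.0507). In NCI-H596, ASAP1 was also called higher at 3, 6 and 12 h, and FOXF2 at 12 h. The 3 h call of ASAP1 was lost without NCI-H596 0 h replicate 1. Without 12 h replicate 1 or 2 of NCI-H596, ASAP1 was at 0.405 or 0.756 at 12 h and FOXF2 at 0.621 or 0.746. CRIM1 went the other way in NCI-H596, called higher at 6 h, at 0.503 or 0.493 in the same fits. NUAK2 was called higher at 3 h in both lines, at 0.553 or 0.575 in A549 and 0.367 or 0.364 in NCI-H596 in these fits. The NCI-H596 call at 3 h was lost without replicate 1 of 0 h or of 3 h. At 12 h NUAK2 was also called higher in NCI-H596, at 0.178 or 0.354 in the same fits. That call was lost without either 0 h replicate or 12 h replicate 1, and with no filter on low counts (adjusted p = 0.0759). Of the CCN2 exon bases, 11.9% overlap LINC01013 on the other strand.

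The other genes of the AXL family were TYRO3, MERTK and the ligands GAS6 and PROS1. TYRO3, a receptor, rose at 12 h by 0.97 in A549 (adjusted p = 8.81e-05) and 0.61 in NCI-H596 (adjusted p = 0.00037, and at most 0.00733 with a library left out), times at which AXL was at -0.29 and -0.03. PROS1 (protein S), a ligand of these receptors, fell in A549 at 12 h by 0.78 on the log2 scale (adjusted p = 0.0044). That call was lost without A549 0 h or 12 h replicate 1. PROS1 was also called lower in NCI-H596 at 12 h, at -0.43 or -0.52 without 12 h replicate 1 or 2. The NCI-H596 call was lost without either 0 h replicate or 12 h replicate 1.

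**Figure D4:**
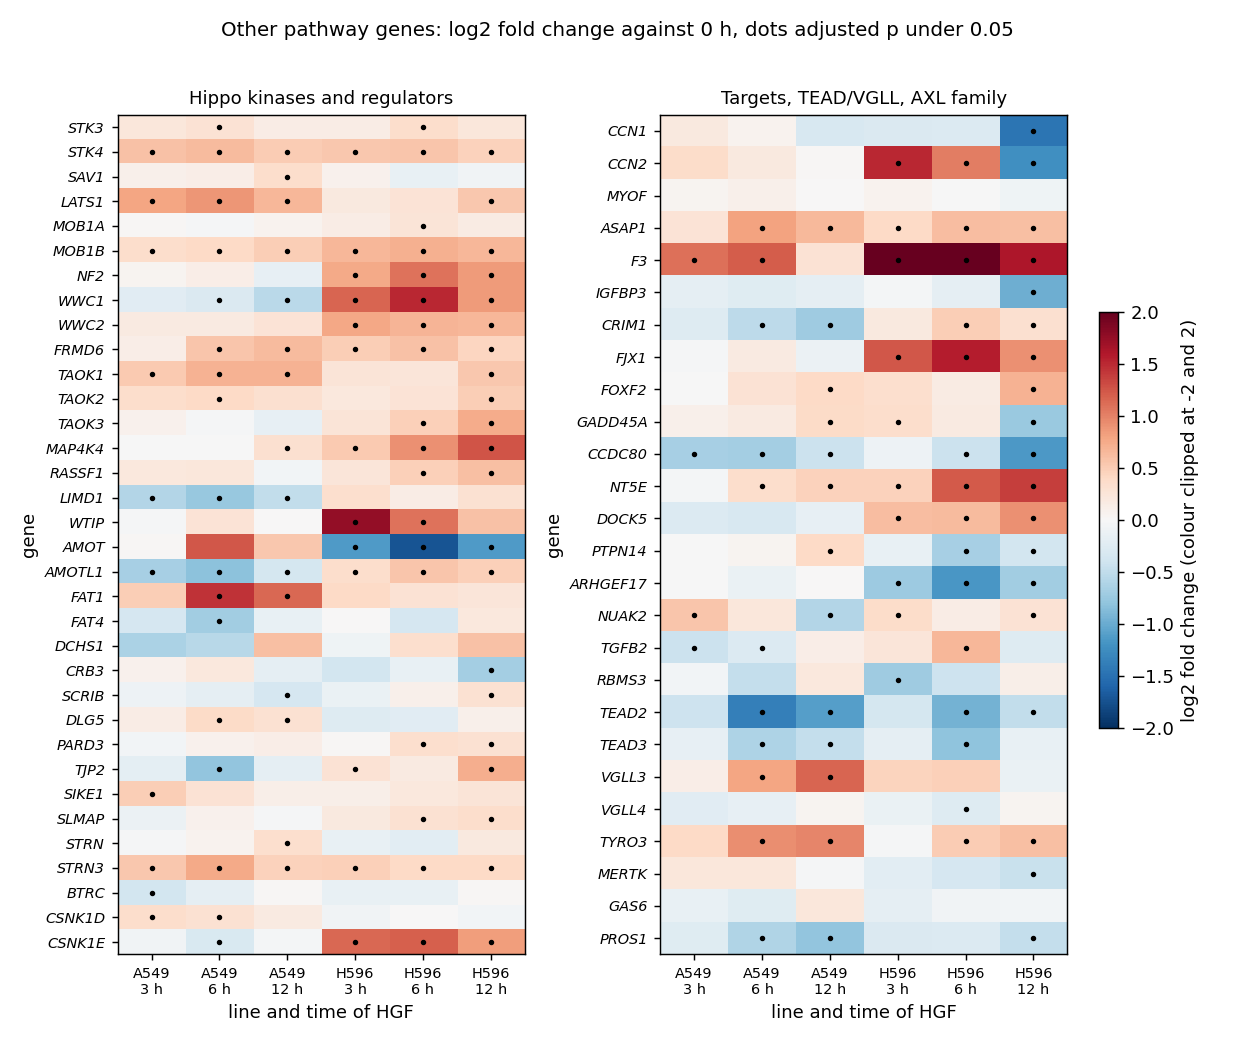
Log2 fold change against 0 h (colour, clipped at -2 and 2) of the other Hippo, target, TEAD and AXL family genes (rows, y axis) for each line and time (columns, x axis), with a dot where the adjusted p was below 0.05. WWC1 is blue in A549 and red in NCI-H596, and CCN1 and CCN2 are blue in NCI-H596 at 12 h, at -1.47 and -1.23.

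For each member, the genes with the most similar course were sought among the 8570 genes whose mean log2 CPM reached 3 in both lines, as Pearson's r over the 16 libraries after the mean of each line was removed. The libraries of 1 time share their treatment, so r is a description of a shared course. WWTR1 was most like RRP1B (r = 0.964) and ZNF526 (0.957), and TEAD4 most like LSM12 (0.950) and CAV1 (0.920), the caveolin gene. The closest to LATS2 were HIPK3 (0.952) and RCOR1 (0.943), to AMOTL2 UNC5B (0.945) and TRIM21 (0.945), and to AJUBA SSBP2 (0.952) and EPB41L1 (0.951). ANKRD1 was most like the amino acid transporter gene SLC7A5 (0.945) and CES2 (0.936). That likeness came mostly from NCI-H596, since r with SLC7A5 was 0.988 over its 8 libraries and 0.417 over those of A549. TEAD1 was most like PLEKHG2 (0.896) and OSBPL3 (0.863), YAP1 most like KMT5A (0.909) and RPS6KA3 (0.906), and AXL most like EXOC7 (0.885) and PIGQ (0.885). The r of YAP1 with KMT5A was 0.983 in A549 and 0.253 in NCI-H596, and r of TEAD1 with OSBPL3 was 0.316 and 0.945. The 12 h NCI-H596 libraries of TEAD1, at 329.7 and 215 CPM, were further apart than its other pairs in that line. The r of TEAD1 thus also takes in this split between replicates, and its share in r was not tested.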

How the data were processed

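Total RNA of A549 and NCI-H596 cells was sequenced by the authors after 0, 3, 6 and 12 h of HGF. Per the paper, adapters were trimmed and reads mapped with STAR on hg38. The submitters' processing notes also list STAR 2.5.0 and RSEM 1.3.2, with no role given. The authors deposited whole-number counts of reads per gene, not normalized, and the annotation version, the use of strand and any rounding are not given in the sources used here. The table spells the A549 columns with another prefix, and they were matched on the rest of the name. Depth was 10158590 to 23909304 counts per library.

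Counts were tested in R 4.3.3 with edgeR 4.0.16 (limma 3.58.1): filterByExpr (minimum count 10, minimum total 15), TMM, and a robust quasi-likelihood fit with 1 coefficient per line and time over all 16 libraries, with Benjamini-Hochberg adjustment and a threshold of 0.05. Log2 CPM used a prior count of 2. Direction in an F test is the sign of the mean over its 3 contrasts. Intervals are 95% and unadjusted. The alternatives were DESeq2 1.42.0, its size factors in edgeR, no filter (genes with 1 count or more), a stricter filter (10 counts or more in all libraries of a line), a replicate block, each line alone, each library left out in turn, the longer motif TGGAATG, and a prior count of 0.5 for the genes most alike. The fits were tested on simulated counts. Members and lists were chosen with earlier results of these data known. Besides the members, the genes named are, from each list and line, the 3 with the largest and the 3 with the smallest log2 fold change at 3 h or, if larger in size, at 12 h among those called at any time whose mean log2 CPM reached 3 in that line, plus CCN1 and CCN2, and for each member the 2 genes most like it. Values of these genes at other times, TEAD2, TEAD3 and the untested or unnamed list members were added for context. Gene positions are 1-based from GENCODE on hg38, and promoters are from RefSeq (GRCh38.p14).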

Additional observations from a re-analysis of the deposited data

Results flagged for a closer look

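For 6 of the 9 members the response to HGF differed between A549 and NCI-H596 by edgeR's F test over the 3 times, beside 37.6% of all genes. The adjusted p was 4.02e-08 for WWTR1, 0.000201 for AMOTL2, 0.000329 for LATS2, 0.000385 for TEAD4, 0.00157 for ANKRD1 and 0.00301 for AJUBA. WWTR1 and TEAD4 moved in opposite directions in the lines, LATS2 stayed higher in A549 after both lines had risen at 3 h, and AMOTL2 and ANKRD1 fell at 12 h in NCI-H596. AJUBA fell in both lines, in A549 already at 3 h. For ANKRD1 the call was lost without NCI-H596 12 h replicate 1 (adjusted p = 0.109) or replicate 2 (adjusted p = 0.0635), and the other 5 were kept in all 16 fits with a library left out. Groups of 2 libraries are too small for a test of outlying samples.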

How the results depend on the processing

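Each group has 2 libraries, 1 line stands for each MET status, and no untreated time course exists, so calls near the threshold are fragile. Same-numbered libraries did not deviate together (correlations of -0.053 to 0.034 in A549 and -0.159 to 0.035 in NCI-H596), so the number was not taken as a pairing. With the replicate block, the F test in A549 called 5 members instead of 8, without AMOTL2, ANKRD1 and AXL (adjusted p = 0.0641, 0.0649 and 0.0835), the TEAD and VGLL list kept 2 calls of 4 in NCI-H596, and all genes called between 3 and 6 h in A549 numbered 309. The block also ended the calls of TEAD1 at 12 h and over all times in NCI-H596 (adjusted p = 0.0602 and 0.0568) and of AMOTL2 before HGF and in the difference at 6 h (adjusted p = 0.0764 and 0.059), and of AMOTL2 in the additive model (adjusted p = 0.0714). With each line alone, the genes called between 3 and 6 h in A549 numbered 951 and, for the other steps, 2801 in A549 and 695 and 1422 in NCI-H596, with 2 TEAD and VGLL calls, 1 member at 3 to 6 h and 4 at 6 to 12 h in A549. No filter gave 860 genes, 1 and 3 members for the A549 steps and 2 AXL family calls in NCI-H596. DESeq2 called 4 members in the difference at 3 h, 1 and 5 in the A549 steps and 5 in the additive model. Size factors moved the median of all genes by at most 0.022.

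Values near 0 changed sign: AJUBA at 3 h in NCI-H596 was 0.0313 with each line alone. AXL at 6 h in A549 was 0.00411 with size factors, 0.00129 with no filter, 0.0041 by DESeq2 and 0.0104 with each line alone, and AXL at 6 h in NCI-H596 was 0.00814 with each line alone. The cause was not tested.

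With 1 library left out, genes called in A549 ranged from 1363 to 4141 at 3 h, 3268 to 6642 at 6 h and 3046 to 6868 at 12 h, and in NCI-H596 from 3029 to 6380 at 3 h and 3722 to 7157 at 12 h. The difference at 3 h ranged from 1743 to 4132. The steps ranged from 96 to 1264 and 686 to 3182 in A549 and from 459 to 3100 and 852 to 6434 in NCI-H596. The highest counts all came without an NCI-H596 12 h library. Members called ranged from 2 to 4 at 3 h and 3 to 5 at 12 h in A549, 3 to 5 at 6 h in NCI-H596, 1 to 5 in the difference at 3 h, 0 to 1 and 1 to 5 in the A549 steps, 1 to 4 from 6 to 12 h in NCI-H596, and 5 to 8 in the F test in A549. TEAD and VGLL calls ranged from 2 to 4 in either line, target calls in A549 from 7 to 13, and AXL family calls from 1 to 2 in either line.

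Uncalled values that changed sign with 1 library left out ranged, for YAP1 at 3 h in A549, from -0.0394 to 0.0169. In NCI-H596, LATS2 ranged from -0.0316 to 0.141 at 6 h and -0.175 to 0.05 at 12 h, AMOTL2 at 3 h from -0.168 to 0.0559, AJUBA at 3 h from -0.0453 to 0.011, ANKRD1 at 6 h from -0.0762 to 0.633 and AXL at 12 h from -0.132 to 0.0434. In A549, AMOTL2 at 12 h ranged from -0.0771 to 0.18, ANKRD1 at 12 h from -0.166 to 0.401, and AXL from -0.0793 to 0.144 at 3 h and -0.111 to 0.11 at 6 h. The differences ranged from -0.162 to 0.0114 for LATS2 and -0.114 to 0.485 for ANKRD1 at 3 h, and from -0.141 to 0.0909 for AXL at 6 h.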
